A study of Mus musculus with 18 samples.

Results

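The 44 genes described here encode enzymes that break down amino acids, together with Bckdk, a kinase that acts on one of those enzymes. They were chosen by symbol from a list drawn up for this description. All 44 of the listed symbols stood in the deposited count table of 20105 genes. The list holds 6 enzymes of tryptophan, 3 of tyrosine, 4 of histidine, 11 genes of the branched-chain amino acids, 6 of methionine and cysteine, 4 of glycine and choline, 3 of proline and ornithine, 1 of lysine, 3 of amino group transfer and glutamate, and 3 of glyoxylate. The study profiled nuclear RNA from female HEP-INTACT mice, whose hepatocyte nuclei carry a tag for capture on beads. The 3 fasted mice had no food for 16 h from ZT12, the onset of the active phase, and the 3 fed mice ate ad libitum and were killed at the same time of day. From each of the 6 mice came bead-bound nuclei of fresh liver (fresh IP), the unbound nuclei of the same fresh liver (supernatant) and bead-bound nuclei of frozen liver (frozen IP). This gave 6 groups of 3 libraries. Every mouse carries the tag, so no group lacks it, and neither the driver of the tag nor the age of the mice is given in the sources used here.

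The liver degrades most amino acids. Their nitrogen goes to urea, and their carbon skeletons go to glucose, ketone bodies or the citric acid cycle, so the pathway is known for its part in the response to fasting. Each amino acid has its own chain of enzymes: tryptophan is opened by a dioxygenase and passes through kynurenine, histidine loses ammonia to become urocanate, and the keto acids of leucine, isoleucine and valine are committed to breakdown by a mitochondrial dehydrogenase complex. Glucagon, glucocorticoids and the transcription factors of the C/EBP and FOXO families are known regulators of several of these genes in liver. Nuclear RNA is rich in unspliced transcripts, so its level is not that of the cell's whole messenger pool.

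The libraries held between 13828945 and 54434263 counts. The fewest counts of any member were 219 in fed fresh IP, 105 in fed frozen IP and 60 in fed supernatant, so no member was near the limit of detection. The 12 hepatocyte marker genes in the table summed to 15159 to 21396 CPM (counts scaled to the size of the library) in fed and 21721 to 28804 CPM in fasted fresh IP, and to 593 to 1013 and 973 to 1558 CPM in fed and fasted supernatant. All 12 were higher in fresh IP than in supernatant. The 10 Kupffer cell and macrophage markers summed to 10.5 to 21.3 CPM in fed and 12.8 to 14.9 CPM in fasted fresh IP, against 3990 to 8211 CPM over the supernatant libraries. Of the 7 cholangiocyte markers, 4 of the 5 tested were higher in IP, and the sum was 649 to 677 CPM in fed and 270 to 309 CPM in fasted fresh IP. Most of that sum was Pkhd1, a gene of the cilium of bile duct and kidney epithelium. Endothelial markers (11 genes) summed to 72.4 to 138 CPM in fed and 36.0 to 83.0 CPM in fasted fresh IP, and stellate cell and fibroblast markers (10 genes) to 75.7 to 134 and 53.9 to 72.5 CPM. Lymphocyte markers (10 genes) summed to 10.4 to 15.9 and 9.27 to 17.1 CPM. In frozen IP the endothelial sum was 199.98 to 284 CPM in fed and 115 to 172 CPM in fasted libraries and the stellate sum 81.8 to 126 and 58.5 to 71.9 CPM, with no overlap. There 5 of the 11 endothelial markers were called lower and 1 higher after fasting, and 5 of the 10 stellate markers lower, against 1 of 11 endothelial and 2 of 9 tested stellate markers lower in fresh IP. No marker list had a gene at 0 in all libraries of a group. The part of these markers in the changes of the 44 genes was not tested.

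One set of fed libraries stood apart. Libraries are named A, B and C within each group as in the deposited table, and libraries of the same letter and feeding state deviated together across preparations. Fed library C was the lowest of the 3 fed libraries for 40 of the 44 genes in fresh IP, for 33 in frozen IP and for 33 in supernatant. It was the lowest for 39.3%, 29.1% and 37.4% of the 12548 genes with a mean of at least 1 CPM over all libraries. In fresh IP it lay at least 2-fold below both other fed libraries for 9 members (Hgd, Cth, Gnmt, Mat1a, Bhmt, Sardh, Gldc, Oat and Agxt), which holds for 2.01% of those 12548 genes. The summed level of the 44 genes was 25405, 24971 and 14577 CPM in fed fresh IP libraries A, B and C. The calls that changed when this library was left out are given with and without it.

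**Figure D1:**
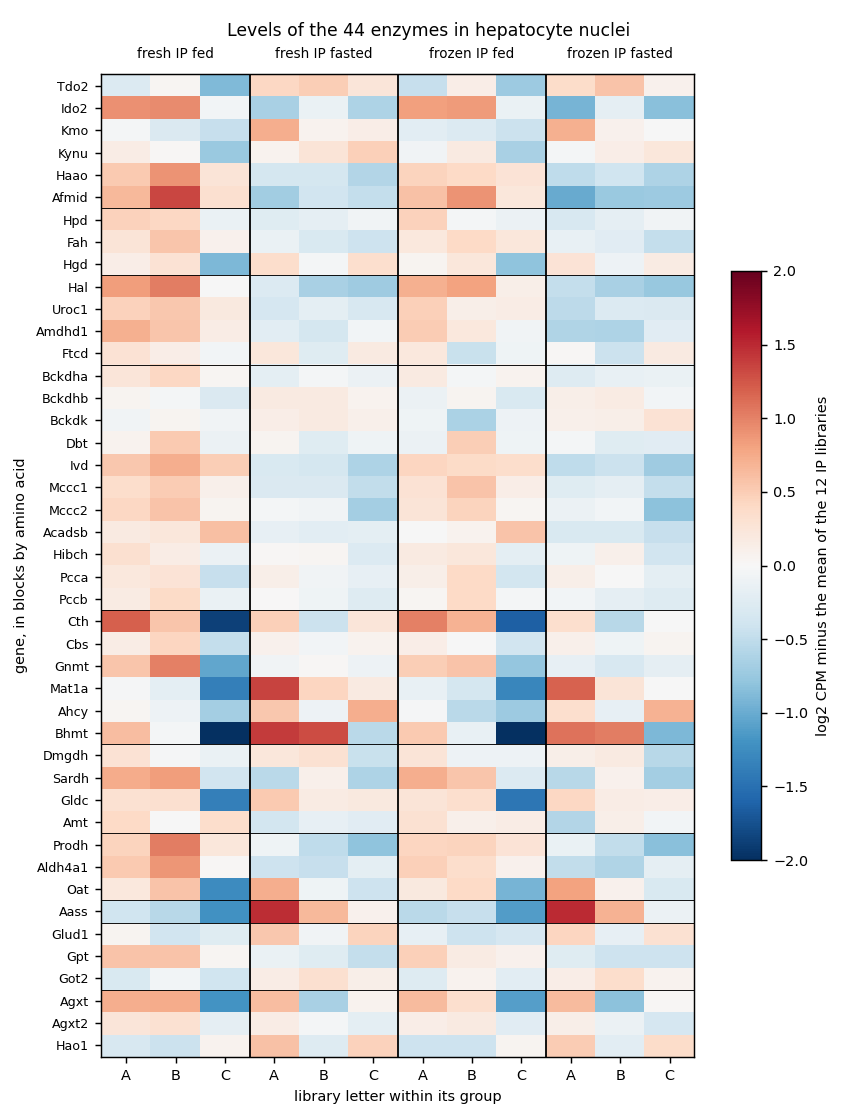
Level of each of the 44 genes in each bead-bound library, as log2 CPM minus the gene's mean over all IP libraries. Rows are genes ordered by the amino acid degraded, columns are the 12 fresh and frozen IP libraries, and the colour scale ends at 2 log2 units in either direction. The fed C columns are the lowest fed columns for most genes, and the methionine rows vary most between fed libraries.

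Fasting lowered more of these genes than it raised. In fresh IP 13 of the 44 genes were lower after the fast and 3 were higher at an adjusted p under 0.05 by edgeR's quasi-likelihood test with Benjamini-Hochberg adjustment over all 12548 genes tested. The lower members made up 29.5% of the list, against 12.6% of all genes tested, and the higher members 6.82% against 12.4%. In frozen IP 13 were lower and 1 was higher, that is 29.5% and 2.27%, against 11.6% and 11.0% of 12926 genes. The median log2 change of the list was -0.22 in both preparations, and that of all genes was 0.01. Whether the list differs from other genes was not tested. Separated fed and fasted values (no library of one group within the range of the other) were found for 23 of the 44 genes in fresh IP (52.3%, against 44.9% of all genes) and 21 in frozen IP (47.7%, against 45.0%), which is near the background and no result about these genes. All 13 genes that fell in fresh IP also fell in frozen IP: Ido2, Haao and Afmid of tryptophan, Fah of tyrosine, Hal, Uroc1 and Amdhd1 of histidine, Ivd, Mccc1 and Acadsb of the branched-chain amino acids, Prodh and Aldh4a1 of proline, and Gpt of alanine. Aass, of lysine, rose in both. In bulk RNA, fewer cells of a type and less RNA per cell cannot be told apart. The p-values rest on 3 mice in each feeding state.

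**Figure D2:**
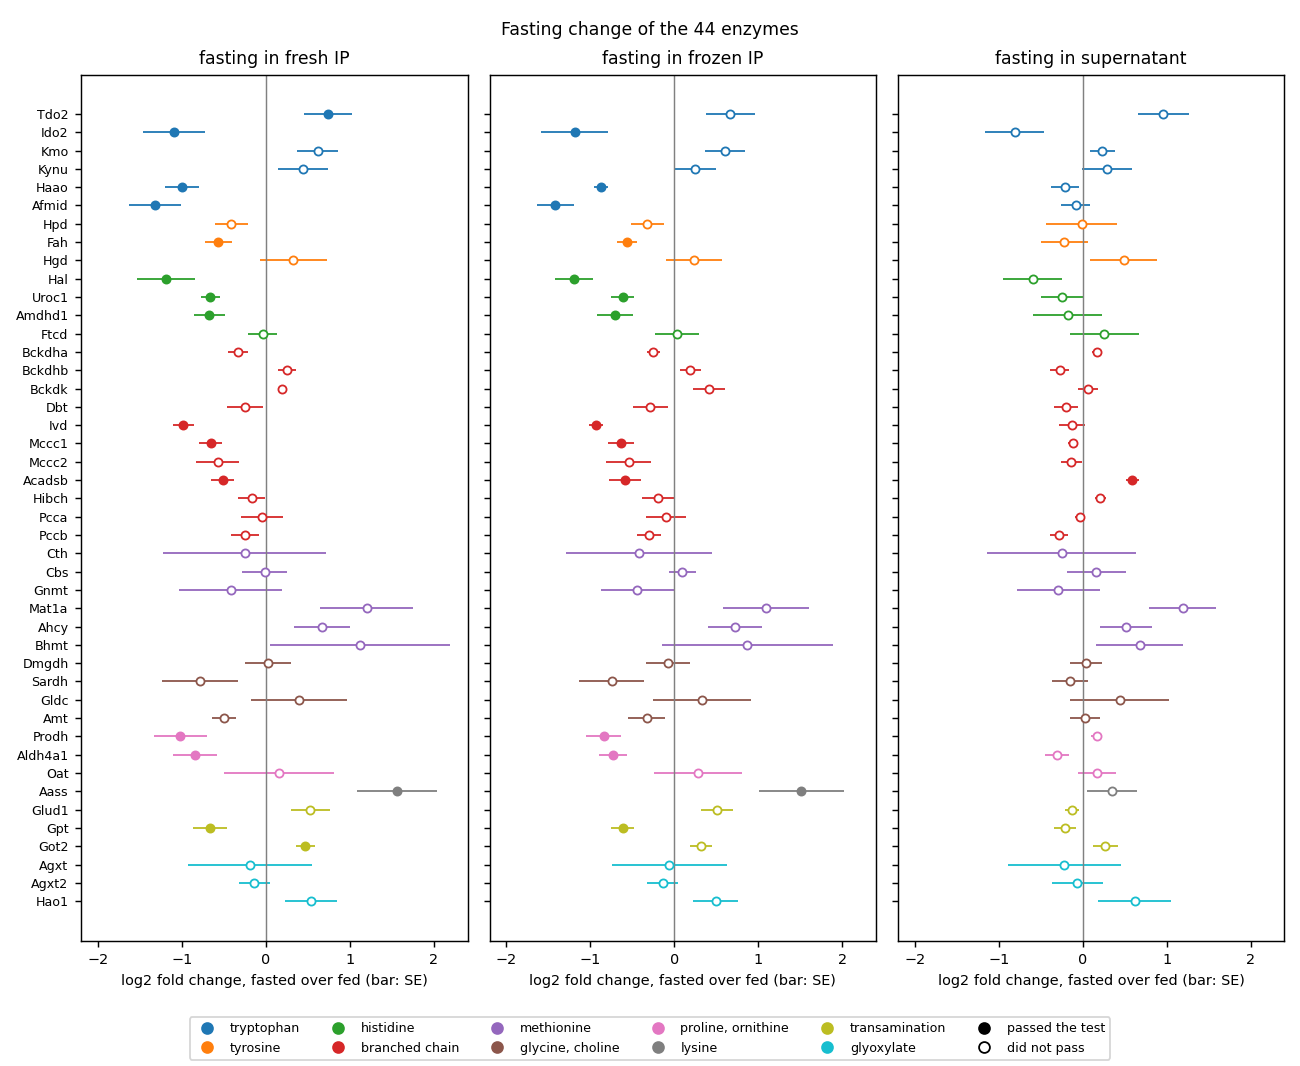
Log2 fold change, fasted over fed, of each of the 44 genes in fresh IP, frozen IP and supernatant, with bars of 1 standard error of the difference of group means (n = 3 libraries per group). Filled points passed an adjusted p under 0.05 by edgeR. Fresh and frozen IP values lie side by side for each gene, and the points of the supernatant lie nearer 0 for most of the 13 genes that fell.

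Of the 6 tryptophan enzymes, 3 fell after fasting in both IP preparations (Ido2, Haao and Afmid), Tdo2 rose in fresh IP, and Kmo and Kynu did not pass the test. Ido2 (chr8:24531892-24576333, minus strand, mm10) encodes a dioxygenase that can open the ring of tryptophan. Its fresh IP level was 303, 312 and 156 CPM in fed libraries A, B and C and 103, 148 and 106 CPM in fasted libraries A, B and C. Frozen IP held 286, 291 and 147 CPM of Ido2 in fed and 85.4, 143 and 91.0 CPM in fasted libraries, and supernatant 6.68, 6.45 and 3.72 (fed) and 2.61, 2.70 and 4.27 (fasted) CPM. Every fasted IP library lay below every fed one, with fed C nearest to the fasted values, while the supernatant groups overlapped. The change was 2.13-fold lower in fresh IP, a log2 change of -1.09 ± 0.37 (standard error of the difference of group means, n = 3 against 3; edgeR adjusted p = 0.023), and -1.19 ± 0.40 in frozen IP (edgeR adjusted p = 0.0261). Ido2 lost the fresh call without fed A, fed B, fasted A or fasted C (log2 change -1.02 to -0.93, adjusted p = 0.0689 to 0.0906) and the frozen call without the same letters (-1.09 to -1.03, adjusted p = 0.0700 to 0.0979).

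Afmid (chr11:117825919-117839908, plus strand) encodes the formamidase that releases kynurenine from its formyl form. Fresh IP levels of Afmid were 104, 167 and 82.7 CPM in the fed and 40.9, 50.7 and 47.6 CPM in the fasted libraries. Frozen IP levels of Afmid were 99.3, 123 and 77.0 (fed) and 32.7, 39.5 and 40.0 (fasted) CPM, and supernatant levels 35.8, 43.9 and 38.0 (fed) and 39.5, 41.0 and 29.7 (fasted) CPM. The fasted IP libraries lay near the level of the supernatant, where fed and fasted values overlapped. Afmid fell 2.50-fold in fresh IP, a log2 change of -1.32 ± 0.31 (edgeR adjusted p = 0.00851), and changed by -1.42 ± 0.22 in frozen IP (edgeR adjusted p = 0.0027). The calls held without any 1 library in fresh IP (log2 change -1.53 to -0.99, highest adjusted p = 0.042) and in frozen IP (log2 change -1.58 to -1.24, highest adjusted p = 0.0162). Afmid shares 96 bases with Tk1, a gene of the cell cycle on the other strand. Tk1 read 46.9, 92.5 and 36.0 CPM in fed and 4.57, 8.21 and 9.18 CPM in fasted fresh IP, and 52.0, 83.5 and 48.5 against 38.0, 37.7 and 25.4 CPM in supernatant. The library kit was stranded, whether strand was used in counting is not given in the sources used here, and the part of Tk1 reads in the Afmid values was not tested.

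Haao (chr17:83831354-83846790, minus strand) encodes the dioxygenase that opens hydroxyanthranilate on the way to NAD. Haao read 490.4, 637 and 408 CPM in fed and 266, 267 and 226 CPM in fasted fresh IP. In frozen IP Haao stood at 464, 449 and 409.8 (fed) and 240.5, 259 and 222 (fasted) CPM, and in supernatant at 15.8, 21.2 and 19.2 (fed) and 18.7, 14.9 and 14.7 (fasted) CPM. Fed and fasted values were well apart in both IP preparations and overlapped in supernatant. Haao fell 1.99-fold in fresh IP, with log2 changes of -0.99 ± 0.20 in fresh and -0.88 ± 0.08 in frozen IP (edgeR adjusted p = 0.00779 and 0.00384). Both calls held without any 1 library (highest adjusted p = 0.0327 in fresh and 0.0234 in frozen IP). Tdo2 (chr3:81958414-81975728, minus strand), the hepatic dioxygenase that carries most of the first step, moved the other way. Its fresh IP levels were 515, 639.6 and 337 CPM in fed and 831, 876 and 738 CPM in fasted libraries. Tdo2 read 452, 682 and 375 (fed) and 799.9, 928 and 663 (fasted) CPM in frozen IP and 13.7, 16.5 and 10.1 (fed) and 20.2, 23.3 and 34.3 (fasted) CPM in supernatant. Fasted values were above all fed values in fresh IP and in supernatant, and in frozen IP fed B lay above fasted C. The Tdo2 log2 change was 0.74 ± 0.28 in fresh IP (edgeR adjusted p = 0.046), 0.66 ± 0.29 in frozen IP (adjusted p = 0.0825) and 0.96 ± 0.30 in supernatant (adjusted p = 0.0547), and the fresh and frozen changes differed by -0.08 ± 0.41 (adjusted p = 1). Leaving out fed B was the only omission that kept the fresh Tdo2 call (the other 5 gave log2 changes of 0.52 to 0.79, adjusted p = 0.0569 to 0.124). The fresh Tdo2 call was also lost with DESeq2's size factors in edgeR (log2 change 0.72, adjusted p = 0.0514) and with all 6 groups in 1 fit (0.71, adjusted p = 0.0545), while DESeq2 called Tdo2 higher in all 3 preparations (DESeq2 adjusted p = 0.0102, 0.0341 and 0.00213 in fresh IP, frozen IP and supernatant). Kmo, the kynurenine hydroxylase, had log2 changes of 0.62 ± 0.24 and 0.60 ± 0.23 in fresh and frozen IP (edgeR adjusted p = 0.0616 and 0.067), with separated groups in both. DESeq2 called Kmo higher in both (DESeq2 adjusted p = 0.0283 and 0.0307), as did edgeR with all 6 groups in 1 fit (adjusted p = 0.0361 and 0.0335). Kynu, the kynureninase, had 0.44 ± 0.30 and 0.25 ± 0.25 (adjusted p = 0.2 and 0.451). Tdo2 thus had the opposite sign to Ido2, Afmid and Haao of the same chain.

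Fah alone of the 3 tyrosine enzymes passed the test. Fah (chr7:84585159-84605942, minus strand) encodes fumarylacetoacetate hydrolase, the last step of the chain, whose loss causes hereditary tyrosinaemia. Fresh IP held 494, 606 and 439 CPM of Fah in fed and 380.0, 335 and 309.7 CPM in fasted libraries. Frozen IP values of Fah were 481, 544 and 485 (fed) and 373, 354 and 296 (fasted) CPM and supernatant values 13.2, 16.8 and 9.32 (fed) and 10.7, 9.68 and 13.1 (fasted) CPM. The IP groups did not overlap and the supernatant groups did. Fah fell 1.48-fold in fresh IP (log2 -0.57 ± 0.16, edgeR adjusted p = 0.0343) and by a similar log2 value in frozen IP (-0.56 ± 0.12, adjusted p = 0.0266). The Fah calls were lost without any 1 library other than fed C (adjusted p = 0.0631 to 0.0971 in fresh IP and 0.0533 to 0.0694 in frozen IP). Hpd, the hydroxyphenylpyruvate dioxygenase, read 863, 839 and 576 CPM in fed and 530.3, 557 and 599 CPM in fasted fresh IP (log2 -0.41 ± 0.20, edgeR adjusted p = 0.113), with overlapping groups. Without fed C the log2 change of Hpd was -0.58 (edgeR adjusted p = 0.0221). Hgd, the homogentisate dioxygenase, read 1759.8, 1970.2 and 859 (fed) and 2057, 1563 and 2024 (fasted) CPM (log2 0.32 ± 0.40, adjusted p = 0.443), with fed C far below the other fed libraries.

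The first 3 of the 4 histidine enzymes, Hal, Uroc1 and Amdhd1, fell in both IP preparations, and the last, Ftcd, did not change by the test. The promoters of the 3, the 250 bases before the start of the RefSeq transcript in the direction of transcription, are printed here 5′ to 3′ with that of Aass, the gene that rose, because these are the chain that fell together and its opposite. They come from RefSeq (GRCm38.p6) and were chosen after the values were seen. Capitals mark a match to a motif searched, which in these 4 windows was the C/EBP motif TTGCNNAA alone.
Hal (chr10:93488518-93488767, plus strand): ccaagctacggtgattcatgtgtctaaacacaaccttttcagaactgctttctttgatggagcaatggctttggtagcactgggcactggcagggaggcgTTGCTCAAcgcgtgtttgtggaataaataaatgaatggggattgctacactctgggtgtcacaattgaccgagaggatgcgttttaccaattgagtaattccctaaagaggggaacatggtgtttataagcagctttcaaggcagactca
Uroc1 (chr6:90333039-90333288, plus strand): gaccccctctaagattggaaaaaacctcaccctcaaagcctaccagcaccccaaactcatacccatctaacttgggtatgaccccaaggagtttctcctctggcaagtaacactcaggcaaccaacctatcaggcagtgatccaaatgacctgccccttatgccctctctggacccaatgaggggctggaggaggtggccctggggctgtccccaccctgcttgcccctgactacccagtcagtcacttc
Amdhd1 (chr10:93540034-93540283, minus strand): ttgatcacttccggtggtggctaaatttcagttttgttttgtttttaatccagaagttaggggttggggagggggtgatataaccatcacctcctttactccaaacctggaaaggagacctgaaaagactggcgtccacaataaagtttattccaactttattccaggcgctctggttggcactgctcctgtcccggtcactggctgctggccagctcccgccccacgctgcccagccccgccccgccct
Aass (chr6:23132987-23133236, minus strand): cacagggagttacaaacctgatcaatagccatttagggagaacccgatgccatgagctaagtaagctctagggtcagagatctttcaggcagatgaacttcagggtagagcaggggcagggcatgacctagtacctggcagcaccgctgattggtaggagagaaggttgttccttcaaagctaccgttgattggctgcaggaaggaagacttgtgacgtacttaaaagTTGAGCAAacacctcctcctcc
A match starts 150 bases before the Hal start and another 22 bases before the Aass start, and no match is in the Uroc1 and Amdhd1 windows. Whether the motif goes with the direction of change was not tested.

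Hal (chr10:93488768-93516743, plus strand) encodes histidine ammonia-lyase, which makes urocanate. Hal read 952, 1078 and 528 CPM in fed and 440.0, 339 and 324 CPM in fasted fresh IP. Levels of Hal in frozen IP were 873, 924 and 576 (fed) and 383, 339.7 and 315 (fasted) CPM, and in supernatant 22.6, 22.9 and 14.1 (fed) and 12.05, 9.46 and 17.7 (fasted) CPM. All fasted IP libraries were below all fed ones, and fed C was the lowest fed library. Hal fell 2.28-fold in fresh IP, with log2 changes of -1.19 ± 0.35 and -1.19 ± 0.23 in fresh and frozen IP (edgeR adjusted p = 0.0164 and 0.00642). The frozen Hal call held without any 1 library (highest adjusted p = 0.0243), and the fresh one was lost without fed A, fed B or fasted C (log2 change -1.12 to -0.99, adjusted p = 0.0515 to 0.0526). Uroc1 (chr6:90333289-90364548, plus strand) encodes urocanate hydratase, the next step. Uroc1 stood at 722, 760.3 and 601 CPM in fed and 417, 459 and 419 CPM in fasted fresh IP. Frozen IP gave Uroc1 levels of 729.6, 569.5 and 585 (fed) and 367, 434 and 431 (fasted) CPM and supernatant 16.4, 17.3 and 11.7 (fed) and 11.0, 11.1 and 16.1 (fasted) CPM. Fed and fasted IP values were separated, and their spread within groups was small. Uroc1 fell 1.59-fold in fresh IP, a log2 change of -0.67 ± 0.11 (edgeR adjusted p = 0.0113), and changed by -0.61 ± 0.14 in frozen IP (edgeR adjusted p = 0.0248). Its fresh call was lost without fasted A (log2 change -0.64, adjusted p = 0.0534), and its frozen call without fed A, fasted A, fasted B or fasted C (log2 change -0.66 to -0.49, adjusted p = 0.0537 to 0.104).

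Amdhd1 (chr10:93523338-93540033, minus strand) encodes imidazolonepropionase, the third step. It lies 6.6 kb from Hal, with the ends of both genes facing each other. Amdhd1 levels were 533, 475 and 361 CPM in fed and 281, 253 and 311 CPM in fasted fresh IP. Amdhd1 gave 463, 375 and 309 (fed) and 214, 212 and 277 (fasted) CPM in frozen IP and 11.5, 10.5 and 8.27 (fed) and 6.69, 5.98 and 14.0 (fasted) CPM in supernatant. The IP groups were separated, and in supernatant the fasted C library was the highest of all 6. Amdhd1 fell 1.60-fold in fresh IP, with log2 changes of -0.67 ± 0.19 and -0.71 ± 0.21 in fresh and frozen IP (edgeR adjusted p = 0.0226 and 0.0296). Both Amdhd1 calls were lost without fed A, fed B, fasted A or fasted B (adjusted p = 0.0657 to 0.0795 in fresh and 0.0619 to 0.112 in frozen IP), and the fresh one also with all 6 groups in 1 fit (log2 change -0.70, adjusted p = 0.0532). Ftcd, which passes the last carbon of histidine to folate, read 734, 664 and 581 CPM in fed and 703, 509 and 683 CPM in fasted fresh IP. Its fed and fasted ranges overlapped, with a log2 change of -0.04 ± 0.18 (edgeR adjusted p = 0.873).

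**Figure D3:**
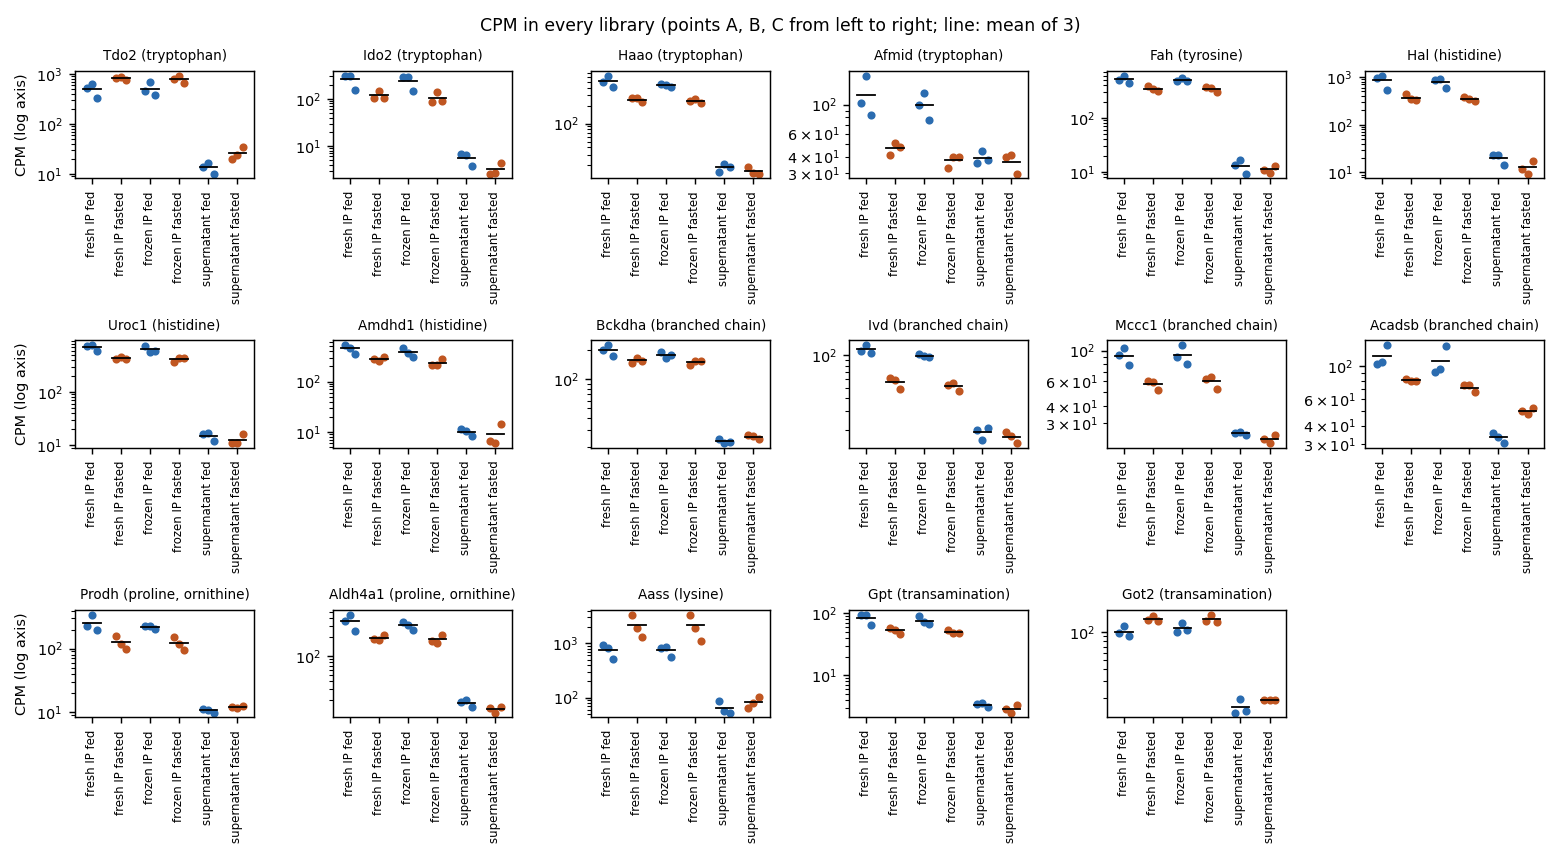
CPM on a log scale of the genes called in any fasting comparison or in the difference of the fasting response, for every library of the 6 groups, with a line at each group mean (n = 3). The fed and fasted points of the genes that fell are separated in fresh and frozen IP and lie closer together in the supernatant, where Acadsb is higher after fasting.

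Of the 11 branched-chain genes, Ivd, Mccc1 and Acadsb fell in both IP preparations, and the other 8, with Bckdha, Bckdhb, Dbt and Bckdk of the keto acid dehydrogenase complex among them, did not pass the test. Ivd (chr2:118862000-118881357, plus strand) encodes isovaleryl-CoA dehydrogenase, a step of leucine breakdown. Ivd read 109.6, 124 and 105 CPM in fed and 61.2, 58.8 and 48.8 CPM in fasted fresh IP. For Ivd, frozen IP held 102, 98.1 and 95.7 (fed) and 53.1, 55.6 and 46.0 (fasted) CPM and supernatant 20.1, 16.4 and 21.1 (fed) and 19.4, 17.7 and 15.2 (fasted) CPM. The highest fasted IP library was far below the lowest fed one, while supernatant values overlapped. Ivd fell 1.98-fold in fresh IP, with log2 changes of -0.99 ± 0.12 and -0.93 ± 0.09 in fresh and frozen IP (edgeR adjusted p = 0.00241 and 0.00234). Both Ivd calls held without any 1 library (highest adjusted p = 0.0106 and 0.0144). Mccc1 (chr3:35959306-36000678, minus strand) encodes the biotin-carrying subunit of methylcrotonyl-CoA carboxylase, the step after Ivd. Mccc1 levels were 93.2, 104 and 78.4 CPM in fed and 60.2, 59.8 and 52.0 CPM in fasted fresh IP. Frozen IP held 89.9, 109 and 80.7 (fed) and 62.2, 65.1 and 52.8 (fasted) CPM of Mccc1, and supernatant 25.5, 25.9 and 24.9 (fed) and 23.2, 21.7 and 24.8 (fasted) CPM. Fasted values lay below fed values in all 3 preparations, by little in supernatant. Mccc1 fell 1.58-fold in fresh IP (log2 -0.66 ± 0.14, edgeR adjusted p = 0.0107), and in frozen IP the log2 change was -0.64 ± 0.16 (edgeR adjusted p = 0.0214). The fresh Mccc1 call held without any 1 library (highest adjusted p = 0.0373), and the frozen one was lost without fasted A or fasted C (log2 change -0.66 to -0.56, adjusted p = 0.0608 to 0.0677). Mccc2, the other subunit of the same enzyme, had log2 changes of -0.58 ± 0.26 and -0.55 ± 0.27 (edgeR adjusted p = 0.0715 and 0.1), with separated groups.

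Acadsb (chr7:131410601-131446211, plus strand) encodes the acyl-CoA dehydrogenase of isoleucine breakdown. Acadsb read 104, 107 and 139 CPM in fed and 81.8, 79.6 and 79.9 CPM in fasted fresh IP. Levels of Acadsb were 91.4, 96.3 and 136 (fed) and 74.2, 74.3 and 66.8 (fasted) CPM in frozen IP, and 35.9, 33.7 and 30.5 (fed) and 49.8, 47.7 and 52.1 (fasted) CPM in supernatant. Fasted values were below fed values in both IP preparations and above them in supernatant, with no overlap in any, and fed C was here the highest fed IP library. The log2 change of Acadsb was -0.52 ± 0.13 in fresh IP, -0.59 ± 0.19 in frozen IP and 0.59 ± 0.08 in supernatant (edgeR adjusted p = 0.0322, 0.0371 and 0.0113). In fresh IP the Acadsb call was lost without any 1 library other than fed A (adjusted p = 0.0502 to 0.0933), without fed C included (log2 change -0.37), and in frozen IP without fed C (log2 change -0.40) or any 1 fasted library (adjusted p = 0.0765 to 0.103 over these 4). In supernatant it was lost without fasted A (log2 change 0.58, adjusted p = 0.0579). Bckdha (chr7:25629852-25658761, minus strand) encodes a subunit of the keto acid dehydrogenase. Bckdha stood at 199.9, 224 and 174 CPM in fed and 148, 165 and 155 CPM in fasted fresh IP. It read 191, 164 and 177 (fed) and 141, 152 and 155 (fasted) CPM in frozen IP and 24.2, 22.0 and 22.4 (fed) and 26.5, 25.7 and 24.4 (fasted) CPM in supernatant. The groups were separated in all 3, with fasted lower in IP and higher in supernatant, but the log2 changes of -0.33 ± 0.11, -0.25 ± 0.08 and 0.17 ± 0.06 did not pass (edgeR adjusted p = 0.0811, 0.151 and 0.293). The fresh IP changes of the other members were 0.25 ± 0.11 for Bckdhb and -0.25 ± 0.21 for Dbt, both of the same complex, 0.19 ± 0.05 for Bckdk, the kinase that turns the complex off, -0.17 ± 0.16 for Hibch of valine, and -0.05 ± 0.25 and -0.25 ± 0.17 for Pcca and Pccb, the subunits of propionyl-CoA carboxylase. Their edgeR adjusted p ranged from 0.207 to 0.874.

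None of the 6 methionine and cysteine genes and none of the 4 glycine and choline genes was called by edgeR in any fasting comparison. At an unadjusted p under 0.05, Ahcy and Mat1a were higher in fresh and in frozen IP and Mat1a in supernatant, and Amt and Sardh were lower in fresh and Sardh in frozen IP. At that limit 39.2% of all genes tested passed in fresh IP, 37.1% in frozen IP and 23.1% in supernatant. The number of members passing is thus no result about these genes. DESeq2 called 27.1% of all genes in fresh IP, 26.1% in frozen IP and 13.1% in supernatant. Among these members it called Mat1a in all 3 comparisons, Ahcy in frozen IP, Sardh in both IP preparations and Amt in fresh IP. Mat1a makes S-adenosylmethionine, the methyl donor of the cell. Mat1a read 2583, 2305 and 1016 CPM in fed and 6752, 3558 and 2986 CPM in fasted fresh IP. In supernatant Mat1a read 70.9, 79.3 and 37.0 (fed) and 153, 104 and 167 (fasted) CPM. Fasted values lay above fed values in each preparation, fed C was the lowest and fasted A the highest IP library, and the log2 changes were 1.20 ± 0.55 in fresh IP, 1.09 ± 0.51 in frozen IP and 1.19 ± 0.40 in supernatant (edgeR adjusted p = 0.0686, 0.078 and 0.0526). Bhmt, which returns a methyl group to homocysteine, read 828, 524 and 114 CPM in fed and 1412, 1337 and 372 CPM in fasted fresh IP. The highest fed library held 7.29-fold more Bhmt than the lowest, and the log2 change was 1.12 ± 1.07 (edgeR adjusted p = 0.271). Bhmt has a close relative, Bhmt2, and the part of reads shared between them in the Bhmt count was not tested. Cth, the last enzyme of transsulfuration, read 1526, 973 and 182 CPM in fed and 921, 496 and 783 CPM in fasted fresh IP, a log2 change of -0.25 ± 0.97 (edgeR adjusted p = 0.789). Cth had the widest spread of the 44 genes in fed fresh IP, 8.38-fold between libraries A and C. Gnmt, which consumes S-adenosylmethionine, read 471, 643 and 157 (fed) and 306, 325 and 299.9 (fasted) CPM, with fed C below every fasted library and fed A and B above them. The log2 change of Gnmt was -0.42 ± 0.62 in fresh and -0.44 ± 0.44 in frozen IP (edgeR adjusted p = 0.483 and 0.336). Without fed C, Gnmt was called lower in both IP preparations (log2 change -0.83 in fresh and -0.77 in frozen IP, edgeR adjusted p = 0.0142 and 0.0112). Sardh was too, with log2 changes of -1.08 and -1.0 (adjusted p = 0.0171 and 0.0301), against edgeR adjusted p of 0.116 and 0.103 with all libraries. The log2 changes of the other members in fresh IP were 0.67 ± 0.34 for Ahcy, which splits S-adenosylhomocysteine, -0.02 ± 0.27 for Cbs, which opens transsulfuration, 0.02 ± 0.27 and -0.78 ± 0.45 for Dmgdh and Sardh of choline breakdown, and 0.39 ± 0.57 and -0.50 ± 0.14 for Gldc and Amt of the glycine cleavage system.

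Prodh and Aldh4a1, the consecutive enzymes that turn proline into glutamate, both fell, and Oat, the ornithine aminotransferase that feeds the same intermediate, did not pass (0.16 ± 0.65, edgeR adjusted p = 0.82). Prodh (chr16:18071726-18089190, minus strand) read 229.6, 345 and 198 CPM in fed and 159.7, 118 and 96.9 CPM in fasted fresh IP. Frozen IP held 229, 230.0 and 205 (fed) and 155, 120.1 and 95.0 (fasted) CPM of Prodh, and supernatant 11.2, 10.8 and 9.71 (fed) and 11.8, 11.3 and 12.2 (fasted) CPM. Prodh was lower after fasting in every IP library and slightly higher in every supernatant library. Prodh fell 2.03-fold in fresh IP, with log2 changes of -1.02 ± 0.32 in fresh IP, -0.84 ± 0.21 in frozen IP and 0.17 ± 0.07 in supernatant (edgeR adjusted p = 0.0236, 0.0164 and 0.365). The frozen Prodh call held without any 1 library (highest adjusted p = 0.0494) and the fresh one was lost without fed B, fasted B or fasted C (log2 change -0.99 to -0.76, adjusted p = 0.0577 to 0.063). Aldh4a1 (chr4:139622894-139649691, plus strand) stood at 358, 459.9 and 255 CPM in fed and 187, 182 and 218 CPM in fasted fresh IP. Aldh4a1 gave 346, 319 and 265 (fed) and 177, 165 and 219 (fasted) CPM in frozen IP and 18.6, 20.0 and 15.7 (fed) and 15.1, 12.7 and 15.7 (fasted) CPM in supernatant. IP groups were separated and the supernatant groups overlapped narrowly. Aldh4a1 fell 1.80-fold in fresh IP, with log2 changes of -0.85 ± 0.26 and -0.73 ± 0.17 in fresh and frozen IP (edgeR adjusted p = 0.0226 and 0.0165). Calls of Aldh4a1 were lost without fed A, fasted A or fasted B in both preparations and without fed B in fresh IP (adjusted p = 0.0545 to 0.0842 in fresh and 0.0507 to 0.0723 in frozen IP). Aass (chr6:23072173-23132986, minus strand) encodes the synthase that opens lysine breakdown and had the largest rise of the 44 genes. Aass read 913, 816 and 517 CPM in fed and 3339.5, 1882 and 1278 CPM in fasted fresh IP. In frozen IP Aass read 828, 869 and 552 (fed) and 3365, 1935 and 1105 (fasted) CPM, and in supernatant 85.1, 58.0 and 53.2 (fed) and 63.7, 79.8 and 105 (fasted) CPM. Fasted A was by far the highest IP library, and every fasted IP library was above every fed one. Aass rose 2.95-fold in fresh IP, with log2 changes of 1.56 ± 0.47 and 1.51 ± 0.51 in fresh and frozen IP (edgeR adjusted p = 0.0203 and 0.0273). The fresh Aass call was lost without fed B or fasted A (adjusted p = 0.0518 to 0.0586), and the frozen one without any 1 library other than fasted C (adjusted p = 0.0513 to 0.0783); without fasted A the log2 change was 1.10 in fresh and 1.02 in frozen IP.

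Gpt (chr15:76696764-76699675, plus strand) encodes the alanine aminotransferase of the cytosol, which yields pyruvate for glucose synthesis. Gpt read 95.2, 95.0 and 65.9 CPM in fed and 58.5, 54.3 and 46.0 CPM in fasted fresh IP. Frozen IP gave 89.3, 71.7 and 67.5 (fed) and 54.0, 47.8 and 47.7 (fasted) CPM of Gpt and supernatant 3.47, 3.56 and 3.09 (fed) and 2.85, 2.52 and 3.34 (fasted) CPM. Fed and fasted IP values were separated. Gpt fell 1.59-fold in fresh IP, with log2 changes of -0.67 ± 0.20 and -0.61 ± 0.14 in fresh and frozen IP (edgeR adjusted p = 0.0236 and 0.0194). Gpt calls were lost in fresh IP without any 1 library other than fed C (adjusted p = 0.0520 to 0.0757) and in frozen IP without fed A, fasted B or fasted C (0.0526 to 0.0613). Got2 (chr8:95864137-95888365, minus strand), the mitochondrial aspartate aminotransferase, rose in fresh IP and did not pass in frozen IP or supernatant. Got2 read 97.0, 115 and 91.5 CPM in fed and 133, 149.6 and 131 CPM in fasted fresh IP. For Got2, frozen IP held 101, 126 and 104 (fed) and 131, 153 and 127 (fasted) CPM and supernatant 13.9, 19.3 and 14.3 (fed) and 19.0, 18.9 and 18.9 (fasted) CPM. The groups were separated in both IP preparations, with fed B close to the fasted values in frozen IP. The log2 change of Got2 was 0.47 ± 0.12 in fresh IP (edgeR adjusted p = 0.0283) and 0.31 ± 0.13 in frozen IP (adjusted p = 0.137), and the changes differed by -0.16 ± 0.18 (adjusted p = 1). Its fresh call was lost without any 1 library other than fed B (adjusted p = 0.0524 to 0.0936). Glud1, the glutamate dehydrogenase that frees ammonia, had log2 changes of 0.53 ± 0.23 and 0.51 ± 0.19 in fresh and frozen IP (edgeR adjusted p = 0.0896 and 0.0831). The 3 glyoxylate genes were called in no fasting comparison by edgeR or DESeq2, and none had an unadjusted p under 0.05. Hao1, the glycolate oxidase, changed by 0.53 ± 0.31 on the log2 scale in fresh IP, Agxt2 by -0.14 ± 0.18 and Agxt, the peroxisomal aminotransferase that clears glyoxylate, by -0.20 ± 0.74.

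Leaving out fed C changed which genes passed. In fresh IP it left 1 higher and 17 lower members (2.27% and 38.6%, against 9.16% and 11.6% of all genes in the same fit), with Hpd, Bckdha, Mccc2, Gnmt and Sardh gained and Tdo2, Acadsb and Got2 lost. The log2 change without fed C was -0.42 for Bckdha and -0.71 for Mccc2 (edgeR adjusted p = 0.0497 and 0.0434), 0.52 for Tdo2 (0.0569) and 0.40 for Got2 (0.0771). In frozen IP it left 0 higher and 14 lower members (0% and 31.8%, against 6.72% and 8.81% of all genes), with Gnmt and Sardh gained and Acadsb and Aass lost (Aass 1.32, adjusted p = 0.0711). Leaving out fasted A lowered the count to 0 higher and 6 lower members in each preparation (13.6% lower, against 6.08% of all genes in fresh and 4.90% in frozen IP). Over all 6 omissions the lower count ran from 6 to 17 in fresh IP and from 6 to 14 in frozen IP. Haao, Afmid, Ivd and Mccc1 passed in fresh IP in the main comparison and in each omission, and Haao, Afmid, Hal, Ivd and Prodh did so in frozen IP. With all 6 groups in 1 fit, the fresh IP calls of Tdo2 and Amdhd1 were lost and Kmo, Bckdha, Mccc2, Amt and Glud1 gained, and in frozen IP Kmo, Bckdk and Glud1 were gained.

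None of the 44 genes was called different between frozen and fresh IP, where 5.16% of 13162 genes did (4.72% higher and 0.441% lower in frozen IP), none had an unadjusted p under 0.05 by edgeR (1686 of all genes did), and DESeq2 called none. The log2 differences of the members, frozen minus fresh, ran from -0.25 to 0.08. Of the members 36 lay below 0 and 8 above, against 7574 and 5588 of all genes tested. Whether the list differs here from other genes was not tested. The main test treats the 2 preparations as independent, although both come from the same mice. With the mouse as a block, 3 members were lower in frozen IP (6.82%, near the 7.07% of all genes in that fit, and so no result about these genes): Afmid (log2 difference -0.23, edgeR adjusted p = 0.0118), Amdhd1 (-0.24, adjusted p = 0.00219) and Bhmt (-0.15, adjusted p = 0.0247). Of the 16 fresh calls 14 were also made in frozen IP (87.5%), which is 100% of the 14 frozen calls, and these libraries come from the same mice. The share over all called genes is not given here, so this overlap is no result about these genes. The fasting changes of fresh and frozen IP differed by at most 0.25 log2 units for any member, and no member or other gene of 13162 passed the test of that difference (0%; 43 genes and no member at an unadjusted p under 0.05, and none by DESeq2). Markers of endothelial cells (11 of 11) and Kupffer cells (7 of 10) were higher in frozen than in fresh IP.

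In the supernatant 1 of the 44 genes was higher after fasting, Acadsb (2.27%, against 3.38% of 13921 genes tested), and none was lower (0%, against 2.84%; 6.22% of all genes were called in either direction). At an unadjusted p under 0.05 there were 4 higher and 4 lower members (9.09% each, against 11.9% and 11.3% of all genes). DESeq2 called Acadsb, Tdo2, Mat1a and Ido2 (9.09%, against 13.1% of all genes). With 44 members these shares are near those of all genes and no result about the members. Fed and fasted values were separated for 9 members (20.5%, against 29.1% of all genes), and the median log2 change was -0.02. Summed over the members, the level was 1137 to 1445 CPM in fed and 1302 to 1613 CPM in fasted supernatant. All 12 hepatocyte markers had a log2 change above 0 in supernatant, 3 of them called, and their sums (973 to 1558 CPM fasted, 593 to 1013 CPM fed) overlapped. A supernatant level can thus hold RNA of hepatocytes and of other cells, and the part of each was not tested.

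The fasting change was more negative in fresh IP than in supernatant for 6 members: Acadsb, Afmid, Prodh, Ivd, Mccc1 and Bckdha (13.6%, against 5.83% of 14322 genes with a lower and 3.71% with a higher response in IP, 9.54% in all). The difference of log2 changes was -1.16 ± 0.15 for Acadsb (edgeR adjusted p = 0.00246), whose levels fell in IP and rose in supernatant. For Prodh it was -1.24 ± 0.32 (adjusted p = 0.024) and for Afmid -1.29 ± 0.36 (adjusted p = 0.0253). Ivd had a difference of -0.91 ± 0.20 (adjusted p = 0.0186), Mccc1 of -0.59 ± 0.15 (adjusted p = 0.0392) and Bckdha of -0.56 ± 0.13 (adjusted p = 0.0353). Of the 6 genes 4 act on branched-chain amino acids, as do 11 of the 44 members. The median difference over the 44 genes was -0.23, and over all genes -0.08. It was -0.59 over the 12 hepatocyte markers, all below 0 and none called. Over the 11 endothelial markers it was -0.96, all below 0 with 1 called lower. Of the 10 Kupffer cell and macrophage markers 4 were below 0 and 6 above, with a median of 0.24. The part of hepatocyte RNA in the supernatant in these differences was not tested. Ivd and Acadsb held without any 1 of the 12 libraries (highest adjusted p = 0.0460 and 0.00979). Afmid was lost without IP fasted A, supernatant fed A, supernatant fed C, supernatant fasted A or supernatant fasted B (log2 change -1.28 to -1.20, adjusted p = 0.0595 to 0.0684), and Prodh without supernatant fed C, supernatant fasted A or supernatant fasted C (log2 change -1.21 to -1.19, adjusted p = 0.0574 to 0.0595). Bckdha and Mccc1 were each lost in 10 of the 12 omissions, all but IP fed C and IP fasted B (adjusted p = 0.0584 to 0.105 for Bckdha and 0.0589 to 0.107 for Mccc1). With the mouse as a block, Bckdha (-0.55, edgeR adjusted p = 0.0565) and Mccc1 (-0.59, adjusted p = 0.0626) did not pass and Haao did (-0.82, adjusted p = 0.0337, against -0.84 ± 0.26 and 0.0518 without the block), which leaves 5 lower members (11.4%, against 6.35% of all genes), 2 of them of the branched-chain amino acids. With all 6 groups in 1 fit Mccc1 was lost as well (-0.56, adjusted p = 0.0621). For the histidine genes the differences were -0.65 ± 0.49 for Hal, -0.47 ± 0.27 for Uroc1 and -0.55 ± 0.45 for Amdhd1 (adjusted p = 0.336, 0.236 and 0.38), so a call in IP without one in supernatant did not amount to a difference between them.

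**Figure D4:**
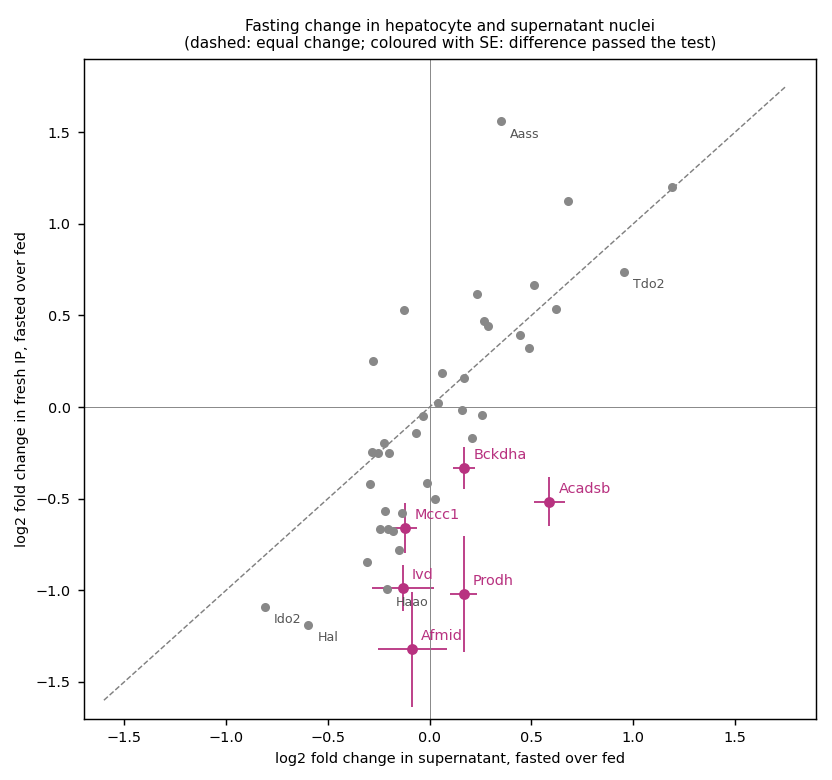
Log2 fold change after fasting in fresh IP (vertical axis) against that in supernatant (horizontal axis) for the 44 genes, with a dashed line of equal change. Coloured genes have bars of 1 standard error of the difference of group means (n = 3 per group). The 6 coloured genes differed between the fractions by edgeR, and Acadsb lies below 0 in IP and above 0 in supernatant.

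All 44 genes were higher in fresh IP than in supernatant, over fed and fasted libraries together (100%, against 42.0% of 14322 genes; 43.0% were lower). The median log2 difference was 4.28. It ranged by amino acid. The glyoxylate genes lay between 5.57 and 5.80, the histidine genes between 5.07 and 5.64, the tyrosine genes between 4.81 and 5.28 and the methionine and cysteine genes between 4.05 and 5.54. The branched-chain genes lay lower, from 0.66 to 3.40 with a median of 1.87. Agxt2 had the highest difference, 5.80 ± 0.18 (edgeR adjusted p = 1.68e-11). The lowest were Bckdk at 0.66 ± 0.07 (adjusted p = 1.54e-05), Afmid at 0.91 ± 0.18 (adjusted p = 0.000145), Pccb at 1.08 ± 0.10 (adjusted p = 2.93e-07) and Acadsb at 1.20 ± 0.08 (adjusted p = 3.56e-08). Branched-chain enzymes are known from most tissues, those of histidine mainly from liver and those of glyoxylate mainly from liver and kidney. The order by amino acid was a description of levels, with no test between the sets.

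**Figure D5:**
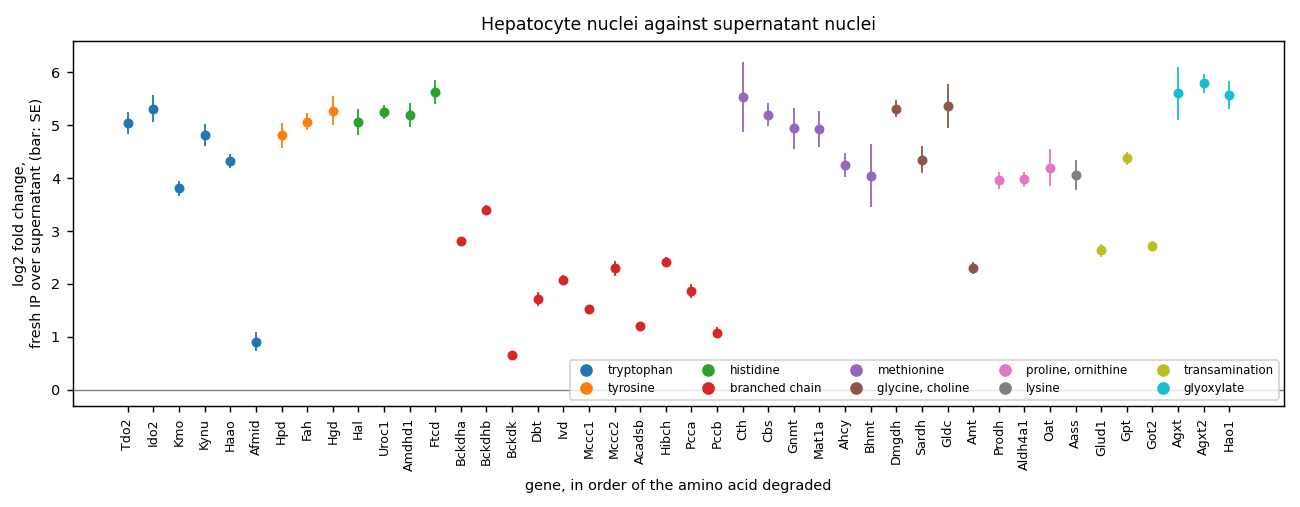
Log2 ratio of fresh IP to supernatant for the 44 genes, grouped by the amino acid degraded, with bars of 1 standard error of the difference of group means (n = 6 libraries per fraction, fed and fasted together). Histidine, tyrosine and glyoxylate genes lie near 5, and the branched-chain genes lie between 0.66 and 3.40.

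The promoter table held 38 of the 44 members. Branched-chain promoters (10 genes) had a median observed to expected CpG ratio of 0.63, the other 28 members 0.37 and all 32851 promoters 0.37. Members with a ratio of at least 0.6 (13 genes) had a median IP to supernatant difference of 2.64 log2 units, and the 25 others 4.35. Across the 38 genes the CpG ratio and that difference had a Pearson r of -0.47 and a Spearman rho of -0.47. This is a description across genes that share the same libraries. The C/EBP motif TTGCNNAA was present in 5 of 38 promoters (13.2%, against 9.56% of 32851): Hgd, Hal, Acadsb, Aass and Hao1. The glucocorticoid receptor motif AGAACA was present in 5 (13.2%, against 16.1%): Haao, Bckdhb, Bckdk, Pccb and Agxt. The FOXO motif TGTTTAC and the CRE TGACGTCA were present in none (3.17% and 1.55% of all promoters), which says only that these letters are not in these 250 bases. Both strands were searched, and the motifs and the ratio limit were chosen after the values were seen.

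Levels between genes can be compared only per length. In fed fresh IP, per kilobase of gene span with introns, Gnmt was highest at 121 ± 70.3 CPM per kb (SD, n = 3), then Mat1a at 101 ± 43.1 and Hpd at 69.8 ± 14.7. Pccb was lowest at 1.07 ± 0.19 and Dbt next at 1.15 ± 0.27. Gnmt and Mat1a did not differ beyond their spread, nor did Pccb and Dbt. The span was used because nuclear RNA holds introns and the deposited length of every gene is its span.

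Other genes of amino acid metabolism were followed with a list of 101 genes, 96 of them in the table. In fresh IP 11 were higher and 21 lower of 86 tested, and in frozen IP 11 and 20 of 87, with medians of -0.21 and -0.15. These are 12.8% and 24.4% in fresh IP, against 12.4% and 12.6% of all genes tested. In frozen IP they are 12.6% and 23%, against 11.0% and 11.6%. The higher shares are near those of all genes and no result about the list. The lower shares were above those of all genes, as was the 29.5% of the 44 members. From this list, 27 genes were called in both IP preparations, 9 higher and 18 lower. Mmab, which makes the cobalamin cofactor of propionate breakdown, fell by the largest log2 value (-2.29 ± 0.26 in fresh IP, edgeR adjusted p = 0.00107). Hao2, a hydroxy acid oxidase, changed by -1.98 ± 0.15 (adjusted p = 0.000579), Gcat of threonine and glycine by -1.55 ± 0.38 (0.0102), Sqrdl, which oxidises sulfide, by -1.48 ± 0.12 (0.000914) and Hnmt, which methylates histamine, by -1.45 ± 0.16 (0.00136). Among the higher genes Sdsl, a serine dehydratase-like gene, changed by 2.26 ± 0.41 (edgeR adjusted p = 0.00292) and Csad of taurine synthesis by 1.72 ± 0.40 (0.00822). Of 18 regulators, 6 were higher and 2 lower in fresh IP, 4 and 2 in frozen IP and 3 and 1 in supernatant. Of all genes tested, 12.4% were higher and 12.6% lower in fresh IP. The same shares were 11.0% and 11.6% in frozen IP and 3.38% and 2.84% in supernatant. In both IP preparations Cebpd (2.30 ± 0.32 in fresh IP, adjusted p = 0.00409), Ppargc1a (1.95 ± 0.28, 0.00168), Foxo1 (1.41 ± 0.30, 0.0079) and Creb3l3 (1.19 ± 0.18, 0.00291) rose, and Nr3c1, the glucocorticoid receptor, fell (-0.75 ± 0.08, 0.00543). Regulators and enzymes were measured in the same libraries, and no link between them was tested.

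The authors' deposited table of fasting changes listed 22 of the 44 genes at an adjusted p under 0.05 in fresh IP, 5 higher and 17 lower, and 21 in frozen IP, 4 higher and 17 lower. Of the 16 fresh calls made here, 15 passed with the same sign in the authors' deposited table, and all 14 frozen calls did. The exception was Tdo2, with a log2 change of 0.66 and an adjusted p of 0.0557 in the authors' deposited table. A further 7 members in each preparation passed in the authors' deposited table alone. Both sets of calls rest on the same libraries. The share over all genes in the authors' deposited table is not given here, so these counts are no result about these genes.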

How the data were processed

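Libraries were made by the authors from total nuclear RNA with a stranded kit and no selection of polyadenylated RNA, and read as 50 bp pairs, per the labels' protocols. STAR 2.4.2a, DESeq2 1.24.0 and mm10 are named in the submitters' processing notes, with no roles; the counting tool and its strand setting are not given in the sources used here. The authors deposited raw counts for 20105 genes and a separate table with their log2 fold changes, their adjusted p-values and a normalized signal, which was used only where named. Depth was 13828945 to 54434263 counts per library, and each group held 3 mice.

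Columns were matched to groups by name. The letters A, B and C stand in no label, and 6 columns that match no sample were not used. Counts were tested with edgeR 4.0.16 in R 4.3.3: TMM scaling, filterByExpr by group, the quasi-likelihood test with only the groups compared, and Benjamini-Hochberg adjustment over all genes tested, with a call at an adjusted p under 0.05. The 7 comparisons were fasting in each of the 3 preparations, IP against supernatant, frozen against fresh IP, and 2 differences of the fasting response. CPM were scaled by TMM over 18 libraries. The standard error given beside a log2 change was computed from the spread of log2 CPM (prior count 2) between libraries of each group, as for independent libraries, and leaves out the pairing by mouse.

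Each of the 6 mice gave 3 libraries, per the titles. Deviations from group means correlated between libraries of the same letter (r = 0.555 to 0.902 between fresh and frozen IP, 0.152 to 0.437 between fresh IP and supernatant and 0.19 to 0.478 between frozen IP and supernatant) and at most 0.01 between different letters, so the letters pair the libraries. Alternatives were DESeq2 1.42.0, its size factors in edgeR, no filter on low counts, all 6 groups in 1 fit, a prior count of 0.5, the mouse as a block, and each library left out. The scripts were tested on simulated data. All 44 genes passed the filter in every comparison. The rule for values: every member is accounted for, values of every library are given for members called in a fasting comparison or in a difference of the response, and at most 8 genes of each other list that were called in both IP preparations are named by the size of the fresh change. Members, lists and comparisons were chosen with earlier results of these data known. One gene of the wider amino acid list that the naming rule selects is not reported here.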

Additional observations from a re-analysis of the deposited data

Results flagged for a closer look

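By the edgeR test of the difference itself, the fasting change differed between fresh IP and supernatant for 6 of the 44 genes (13.6%). All 6 had a more negative change in IP, which was called for 5.83% of all genes (9.54% in either direction). That test treats the fractions as independent, although both come from the same mice; with the mouse as a block Bckdha (adjusted p = 0.0565) and Mccc1 (adjusted p = 0.0626) did not pass and Haao did (adjusted p = 0.0337). The difference of log2 changes, IP minus supernatant, was -1.29 for Afmid, -0.56 for Bckdha, -0.91 for Ivd, -0.59 for Mccc1, -1.16 for Acadsb and -1.24 for Prodh. Acadsb was called in both fractions, in opposite directions, and Bckdha was called in neither. Ivd and Acadsb held without any 1 library, and the other 4 were each lost in some omissions. All 12 hepatocyte markers also had a more negative change in IP, none of them called. Their part in these differences was not tested.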

How the results depend on the processing

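No called change of a member turned its direction under the alternatives run. Changes that were not called did turn: 8 members in fresh IP, 9 in frozen IP and 14 in supernatant changed sign when a library was left out, in fresh IP among them Cth (-0.75 to 0.37), Oat (-0.25 to 0.53), Agxt (-0.61 to 0.07), Cbs (-0.23 to 0.19) and Dmgdh (-0.11 to 0.22), so no direction is given for these. So did 28 members between frozen and fresh IP, 20 for the response in IP against supernatant and 41 for the response in frozen against fresh IP, over all alternatives and none of them called in the main comparison. All 44 genes were higher in IP than in supernatant in every fit. The following counts moved by more than 1.5 times. With DESeq2, members called higher were 5 in fresh IP (11.4%, against 12.9% of all genes), 6 in frozen IP (13.6%, against 12.5%) and 3 in supernatant (6.82%, against 6.49%). These shares are near those of all genes and no result about the members. In supernatant 1 member was lower (2.27%, against 6.59%). A higher response in IP than in supernatant was called for 1 member (2.27%, against 6.42%). Over all genes, DESeq2 gave 928 higher and 943 lower in supernatant, 169 lower in frozen than fresh IP, and 915 higher and 1392 lower responses in IP. With all 6 groups in 1 fit, 4 members and 2257 genes were higher in frozen IP (9.09% and 15.6%), 239 genes were lower in supernatant and 157 were lower in frozen than fresh IP. With no filter on low counts 3 members were higher in supernatant (6.82%, against 2.75% of all genes). With the mouse as a replicate block, 3 members were lower in frozen than fresh IP, as were 930 genes, and 1238 genes were higher; of the 6 members whose response differed between IP and supernatant, 4 passed, with Haao added. The block changed no other call of a member. Leaving out each library in turn, members called higher and lower ran from 0 to 4 and 6 to 17 in fresh IP and from 0 to 2 and 6 to 14 in frozen IP. They ran from 0 to 1 higher in supernatant, and from 0 to 1 higher and 2 to 8 lower for the response in IP against supernatant. Over all genes the same omissions gave 652 to 1249 higher and 777 to 1479 lower in fresh IP, 525 to 1095 and 643 to 1176 in frozen IP, 128 to 357 and 69 to 274 in supernatant, 393 to 651 and 16 to 60 in frozen against fresh IP, and 310 to 529 and 450 to 979 for the response in IP against supernatant. Fewer samples enter those fits; the cause of the other moves was not tested. A loss of a call with a library left out came with adjusted p of 0.0502 to 0.124 in fresh IP and 0.0507 to 0.112 in frozen IP. No member had fewer than 60 counts in any library, and each feeding state had 3 mice.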
